A study of Mus musculus with 6 samples.

Results

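The genes described here encode the signalling part of the T cell receptor, its coreceptors and the first proteins that act on them: Cd3d, Cd3e, Cd3g, Cd247, Cd8a, Cd8b1, Cd4, Lck, Zap70 and Cd2. They were measured in heart RNA of VAChT KD mice and of wild-type (WT) mice. The members were all probe sets that the platform annotation lists with 1 of these 10 symbols. This gave 9 probe sets for 9 genes among 35556 probe sets. Lck, the kinase that phosphorylates the receptor chains, was not listed in the annotation used here and has no value below, and no probe set listed a member together with other symbols.

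The study compared VAChT KD mice, which are homozygous for an allele that lowers expression of the vesicular acetylcholine transporter in all tissues (VAChT KDHOM in the study), with WT mice, to find changes in the heart under a long-term decrease of cholinergic tone. All were untreated males of 3 months. The sample records give C57BL/6 as the strain, the methods a mixed C57BL6/j background with few generations of backcrossing. Each genotype had 3 arrays, and on each array RNA from 2 samples was pooled. P-values below therefore rest on how far these pools differ, and the records name the heart as tissue where the methods name ventricles. In tissue RNA, fewer T cells and less RNA per T cell cannot be told apart.

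On T cells the antigen receptor itself has hardly any intracellular part. It signals through the CD3 delta, epsilon and gamma chains and through the zeta chain (Cd247), whose tails carry tyrosines that Lck phosphorylates and the kinase ZAP-70 then binds. CD4 and the CD8 alpha and beta chains bind MHC molecules on the partner cell and bring Lck to the receptor, and CD2 is an adhesion receptor, which in mice binds CD48. A healthy heart holds few T cells, so that such transcripts are expected to be rare in its RNA.

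Some properties of the arrays bear on every value below. Slc18a3, which encodes the vesicular acetylcholine transporter, read 7.24, 6.77 and 7.58 (log2) on VAChT KD arrays 1, 2 and 3, against 7.31, 7.42 and 7.11 on WT arrays 1, 2 and 3, so it did not separate the groups. Ogdhl, an oxoglutarate dehydrogenase-like protein, read 7.06, 10.17 and 7.09 in VAChT KD hearts, against 9.60, 7.21 and 10.33 in WT hearts. The array labelled VAChT KD 2 thus read like the arrays labelled WT 1 and 3 at this gene, and the array labelled WT 2 like those labelled VAChT KD 1 and 3. The labels of these 2 arrays may be exchanged, which the sample records alone do not settle. All values below follow the labels as given, so every difference between the groups depends on them. Results for the members, and counts for further T cell gene lists, are also given without both arrays. For the members, values with no test are given with the labels of both arrays exchanged, an alternative chosen after the data were seen. In the other gene lists the exchange is given only at the genes where this is said. The exchange would put Ogdhl at a log2 difference of -2.91 without overlap, in place of -0.94 with overlap. For Themis, a T cell gene, it would give -0.40 in place of -0.25. The study lists both genes as lower in VAChT KD mice. Its fold sizes for them match the values after the exchange and not those with the labels as given. The study's groups at these genes are thus those of the exchanged labels. Slc18a3 would be at 0.35 in place of -0.08, with overlapping groups under both. Array VAChT KD 1 read lower than all others at the brightest heart muscle genes, for example Tnnt2, cardiac troponin T, at 13.59 on this array, 14.58 and 14.57 on VAChT KD 2 and 3, and 14.57, 14.61 and 14.50 on WT 1 to 3. The median of all probe sets lay between 6.84 and 6.98 on the 6 arrays, and 1 of the 35556 probe sets (0.00281%), and 0 of the 21789 with 1 symbol, differed between the groups at an adjusted p of 0.05 in limma.

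All 9 T cell genes were dim. As a measure of background the 1035 probe sets of olfactory receptor genes were used, most of which a heart is not expected to transcribe. Their mean log2 signal over the 6 arrays had a median of 4.71 and a 95th percentile of 6.503. Cd3e at 7.11, Cd8a at 6.86 and Cd247 at 6.55 lay above that percentile, and the other 6 genes lay below it. Cd4 at 6.33, Cd8b1 at 6.28, Zap70 at 6.22 and Cd2 at 6.16 were brighter than 91.0% to 93.4% of the olfactory receptor probe sets, and Cd3g at 5.34 and Cd3d at 5.23 were brighter than 70.3% and 67.3% of them. All 9 were above the median of the olfactory receptors on each of the 6 arrays, while none was above their 99th percentile of 7.43. With the 204 vomeronasal and taste receptor genes as background, whose 95th percentile was 6.11, 7 of the 9 lay above it. Probe sets differ in how strongly they bind, so these ranks describe each probe set against background and do not order the genes by transcript level. For comparison, the macrophage genes Csf1r and C1qa, a growth factor receptor and a complement subunit, averaged 9.07 and 8.78, and Ptprc, the CD45 phosphatase that all leukocytes carry, averaged 7.54.

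**Figure D1:**
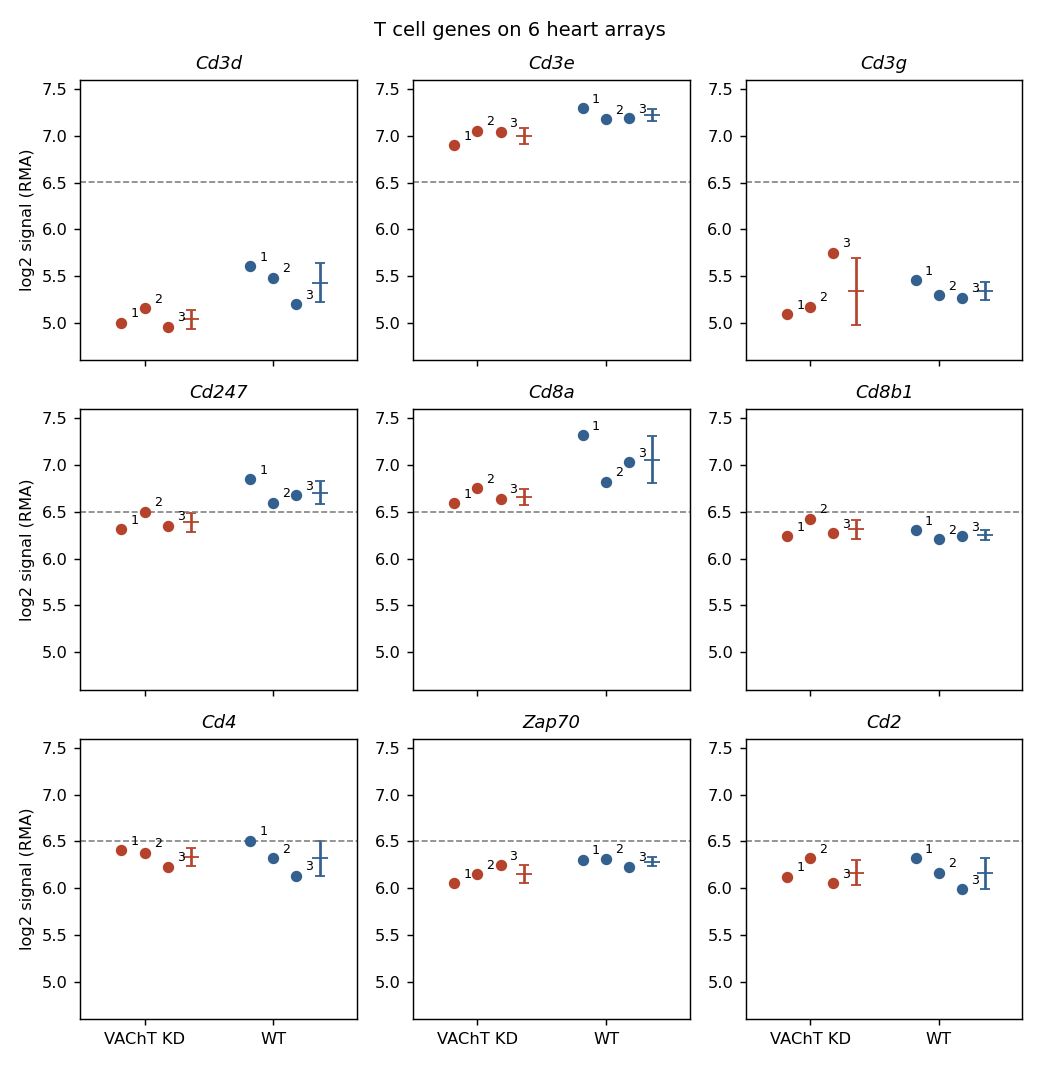
Log2 signal (vertical axis) of the 9 T cell genes on the arrays of VAChT KD hearts (left, red) and WT hearts (right, blue), with the number of each array; bars are the mean ± SD of 3 arrays and the dashed line is the 95th percentile of olfactory receptor probe sets, 6.503. With the labels as given, the groups do not overlap for Cd3d, Cd3e, Cd247 and Cd8a, and only Cd3e and Cd8a lie above the line on all 6 arrays.

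Of the 9 genes, Cd3d, Cd3e, Cd247 and Cd8a had lower signal on every array labelled VAChT KD than on any labelled WT, by a mean of 0.22 to 0.40 on the log2 scale. This separation rested on the labels of the arrays numbered 2: with these exchanged, the groups overlapped at all 4 genes, and the differences were -0.17 for Cd3d, -0.14 for Cd3e, -0.26 for Cd247 and -0.35 for Cd8a. Cd3g, Cd8b1, Cd4 and Cd2 differed by 0.06 or less and Zap70 by -0.13, all with overlapping groups. None of the 9 passed an adjusted p of 0.05 in limma (lowest adjusted p = 0.409), and 4 were lower and 0 higher at an unadjusted p of 0.05. The methods' ANOVA with the same adjustment also called 0, and it put 3 (Cd3d, Cd3e and Cd247) lower at an unadjusted p of 0.05, against 5.96% of all probe sets. Of all 35556 probe sets, 7.81% were lower and 3.93% higher at an unadjusted p of 0.05 in limma, and of the olfactory receptor probe sets 10.6% were lower and 0.29% higher. Groups without overlap and lower signal in VAChT KD hearts were found at 12.9% of all probe sets and 18.6% of the olfactory receptor probe sets. With the fold threshold of the study, 1.3, added to the unadjusted p, Cd3d and Cd8a were lower in limma, against 1.67% of all probe sets. Under the methods' ANOVA with that fold, the rule the study states, Cd3d alone was lower with the labels as given, against 0.796% of all probe sets. The study's own list of changed genes holds none of the 9. That list's fold sizes for Ogdhl and Themis match the exchanged labels, so its groups at those genes are not the groups of the counts above. With the labels exchanged, Cd3d, Cd3e, Cd247 and Cd8a were each less than 1.3-fold lower. The difference was below 0 at 6 of the 9 genes, at 54.2% of all probe sets and at 83.7% of the olfactory receptor probe sets. The median log2 difference of the 9 genes was -0.13, that of all probe sets -0.02 and that of the olfactory receptor probe sets -0.11.

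The 3 CD3 chains and the zeta chain form the signalling part of the receptor. Cd3d, the delta chain, read 4.999, 5.15 and 4.96 in VAChT KD hearts, against 5.60, 5.48 and 5.20 in WT hearts. The highest VAChT KD value lay just below the lowest WT value, and 5.60 on WT 1 was the highest of all 6. Its log2 difference was -0.39 (standard error 0.12, limma unadjusted p = 0.0131, adjusted p = 0.409), a signal 1.31-fold lower in VAChT KD hearts, at a gene that lay below the 95th percentile of the olfactory receptors.

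Cd3e, the epsilon chain, which pairs with delta or gamma, read 6.90, 7.06 and 7.04 in VAChT KD hearts, against 7.30, 7.18 and 7.19 in WT hearts. This was the brightest probe set of the 9, and its highest VAChT KD array lay below its lowest WT array. The log2 difference was -0.22 (standard error 0.08, limma unadjusted p = 0.0301, adjusted p = 0.409). Without array VAChT KD 1 it was -0.17 (limma unadjusted p = 0.1), and without both arrays numbered 2 it was -0.27 (limma unadjusted p = 0.076). After median centring of the arrays the difference was -0.16 (limma unadjusted p = 0.1).

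Cd3g, the gamma chain, read 5.09, 5.17 and 5.75 in VAChT KD hearts, against 5.46, 5.30 and 5.27 in WT hearts. Array VAChT KD 3 was the highest of the 6 and VAChT KD 1 the lowest, so the groups overlapped fully. The difference was -0.00 (95% interval -0.41 to 0.40), which leaves room for a difference as large as that of Cd3d.

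Cd247, the zeta chain, read 6.31, 6.504 and 6.35 in VAChT KD hearts, against 6.85, 6.60 and 6.68 in WT hearts. The groups did not overlap, with 6.504 on VAChT KD 2 and 6.60 on WT 2 as the closest values. The log2 difference was -0.32 (standard error 0.10, limma unadjusted p = 0.0131, adjusted p = 0.409), and without both arrays numbered 2 it was -0.43 (limma unadjusted p = 0.0145).

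In RefSeq's order of coding genes, Cd3g, Cd3d and Cd3e are direct neighbours on chromosome 9, with Cd3g and Cd3d next to each other on opposite strands, and Cd8b1 and Cd8a are neighbours on chromosome 6. The 250 bases before the start of the 4 genes with lower signal, and of Cd3g for comparison, are given here from RefSeq (GRCm38.p6), 5′ to 3′ on the strand of the gene, since Cd3g lies beside Cd3d and did not share its lower signal. Of the 9 genes 6 matched the RefSeq promoter table. Capitals mark matches, on either strand, to the short core motifs of factor families that act in T cells. The letters searched were TGTGGT for RUNX factors, AGGAAG for ETS factors, CAGGTG for E-box proteins, CTTTGA for the TCF and LEF factors and AGATAA for the GATA factors.
Cd3d, chr9:44981536-44981785, plus strand: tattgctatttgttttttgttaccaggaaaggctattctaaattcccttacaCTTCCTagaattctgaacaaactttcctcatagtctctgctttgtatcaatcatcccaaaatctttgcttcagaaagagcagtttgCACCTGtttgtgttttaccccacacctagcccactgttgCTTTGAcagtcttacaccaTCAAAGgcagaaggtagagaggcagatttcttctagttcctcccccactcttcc
Cd3e, chr9:45009612-45009861, minus strand: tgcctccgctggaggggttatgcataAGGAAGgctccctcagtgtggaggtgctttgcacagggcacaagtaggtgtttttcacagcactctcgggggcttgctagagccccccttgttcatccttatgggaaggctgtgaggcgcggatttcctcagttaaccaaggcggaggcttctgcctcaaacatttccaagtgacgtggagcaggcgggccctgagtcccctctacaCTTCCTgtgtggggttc
Cd3g, chr9:44980432-44980681, minus strand: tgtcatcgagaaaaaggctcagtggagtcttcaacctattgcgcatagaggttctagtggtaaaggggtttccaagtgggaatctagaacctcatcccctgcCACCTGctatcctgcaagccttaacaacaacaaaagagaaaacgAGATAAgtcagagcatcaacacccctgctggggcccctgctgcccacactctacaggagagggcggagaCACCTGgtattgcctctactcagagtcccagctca
Cd247, chr1:165788431-165788680, plus strand: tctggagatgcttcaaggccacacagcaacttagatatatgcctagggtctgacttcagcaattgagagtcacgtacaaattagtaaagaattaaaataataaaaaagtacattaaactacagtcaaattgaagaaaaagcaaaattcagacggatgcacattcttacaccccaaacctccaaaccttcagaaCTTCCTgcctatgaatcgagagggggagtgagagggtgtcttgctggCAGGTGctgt
Cd8a, chr6:71373177-71373426, plus strand: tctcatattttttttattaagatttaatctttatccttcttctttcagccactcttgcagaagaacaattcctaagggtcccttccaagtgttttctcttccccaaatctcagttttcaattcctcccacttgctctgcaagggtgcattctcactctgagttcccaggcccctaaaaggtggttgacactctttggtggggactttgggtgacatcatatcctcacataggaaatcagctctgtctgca
The ETS letters occurred before Cd3d, Cd3e and Cd247, the E-box letters before Cd3d, Cd3g and Cd247, the TCF/LEF letters before Cd3d and the GATA letters before Cd3g. The window before Cd8a held none of the 5 motifs, and the RUNX letters occurred in none of the 5 windows. Among all 32851 promoter windows of the same length, 29.5% held the ETS letters, 17.2% the E-box letters, 14% the RUNX letters, 13.8% the TCF/LEF letters and 9.99% the GATA letters. No matches overlapped, and they describe these windows only.

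Among the coreceptors, the log2 difference was -0.40 for Cd8a, 0.06 for Cd8b1 and 0.02 for Cd4, and only Cd8a had groups without overlap. Cd8a, the alpha chain, which some dendritic cells of the mouse also carry, read 6.59, 6.76 and 6.64 in VAChT KD hearts, against 7.32, 6.82 and 7.03 in WT hearts. WT 1 was the highest, WT 2 lay just above the highest VAChT KD array, and the groups did not overlap. The log2 difference was -0.40 (standard error 0.13, limma unadjusted p = 0.0188, adjusted p = 0.409), the largest of the 9, or 1.32-fold. Without array VAChT KD 1 it was -0.36 (limma unadjusted p = 0.0602), and without both arrays numbered 2 it was -0.56 (limma unadjusted p = 0.00796).

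Cd8b1, the beta chain, which is found on conventional cytotoxic T cells, read 6.24, 6.43 and 6.27 in VAChT KD hearts, against 6.31, 6.21 and 6.24 in WT hearts. The groups overlapped and the difference was 0.06 (95% interval -0.13 to 0.26). Whether Cd8a and Cd8b1 differed in their response was not tested.

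Cd4, the coreceptor of helper T cells, which myeloid cells can also express, read 6.40, 6.38 and 6.23 in VAChT KD hearts, against 6.505, 6.32 and 6.13 in WT hearts. WT 1 was the highest and WT 3 the lowest array, and the difference was 0.02 (95% interval -0.25 to 0.28).

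Downstream of the receptor, Zap70 read 6.05, 6.15 and 6.25 in VAChT KD hearts, against 6.30, 6.32 and 6.23 in WT hearts. Only VAChT KD 3 reached the WT range, and the difference was -0.13 (95% interval -0.33 to 0.06, limma adjusted p = 0.526). Cd2 read 6.12, 6.32 and 6.05 in VAChT KD hearts, against 6.32, 6.16 and 5.99 in WT hearts, with a difference of 0.01 (95% interval -0.26 to 0.28). The intervals of Cd8b1, Cd4 and Cd2 end above -0.32, the difference of Cd247, but overlap its own 95% interval of -0.55 to -0.09. Whether these genes differed from Cd247 was not tested.

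**Figure D2:**
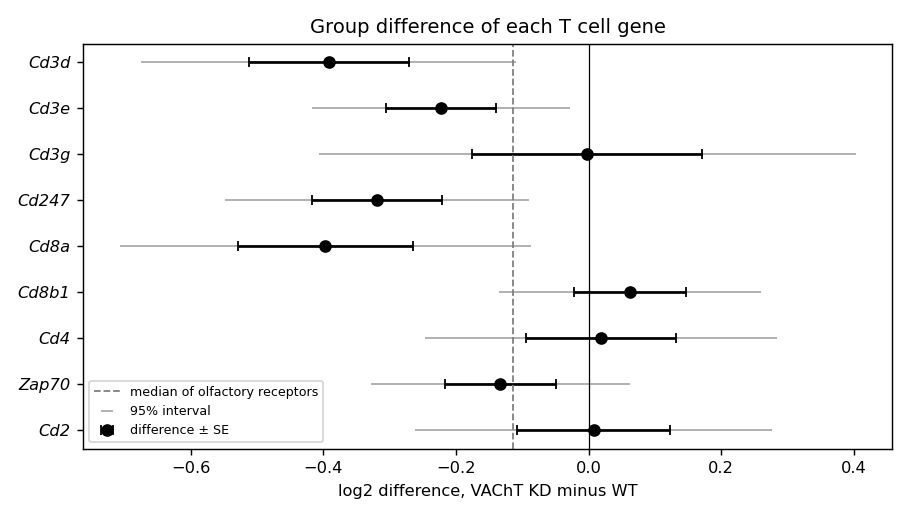
Log2 difference, VAChT KD minus WT (horizontal axis), of the 9 T cell genes, with the standard error (black) and the 95% interval (gray) from limma; the dashed line is the median of the olfactory receptor probe sets, -0.11. Cd3d, Cd3e, Cd247 and Cd8a lie left of the dashed line with intervals that end below 0, and the other 5 intervals include 0.

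Array by array, the mean of the 9 genes was 6.08, 6.21 and 6.17 in VAChT KD hearts, against 6.44, 6.27 and 6.22 in WT hearts. Array WT 1 had the highest value at 6 of the 9 genes and VAChT KD 1 the lowest at 5 of them. The olfactory receptor probe sets followed a similar order, with means of 4.78, 4.81 and 4.73 in VAChT KD hearts and 4.98, 4.85 and 4.84 in WT hearts. WT 1 was thus the brightest array for the T cell genes and for background alike, and the part of this in the T cell differences was not tested. Without WT 1 the count of T cell genes that were lower at an unadjusted p of 0.05 was 3, Cd3d, Cd247 and Cd8a, with differences of -0.30, -0.25 and -0.27, while the share of all probe sets that were lower was 3.69%. Without VAChT KD 1 the count was 2, Cd3d at -0.37 and Cd247 at -0.28, and the share of all probe sets was 5.85%. Without both arrays numbered 2 it was 3, Cd3d, Cd247 and Cd8a, against 6.16% of all probe sets.

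Across all probe sets the group difference varied with signal. The median log2 difference was -0.10 for probe sets with a mean between 5 and 6, -0.11 between 6 and 7, -0.03 between 7 and 8, and 0.06 between 8 and 9. In these 4 ranges 11.3%, 14.7%, 9.4% and 3.29% of the probe sets were lower in VAChT KD hearts at an unadjusted p of 0.05 in limma. Cd3d and Cd3g lay in the first of them, Cd247, Cd8a, Cd8b1, Cd4, Zap70 and Cd2 in the second and Cd3e in the third, so 8 of the 9 genes lay in the 2 ranges with the lowest medians outside the brightest probe sets. Zap70 at -0.13 lay close to the median of its range, Cd3d, Cd247, Cd8a and Cd3e lay below theirs, and Cd3g, Cd8b1, Cd4 and Cd2 lay above theirs.

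**Figure D3:**
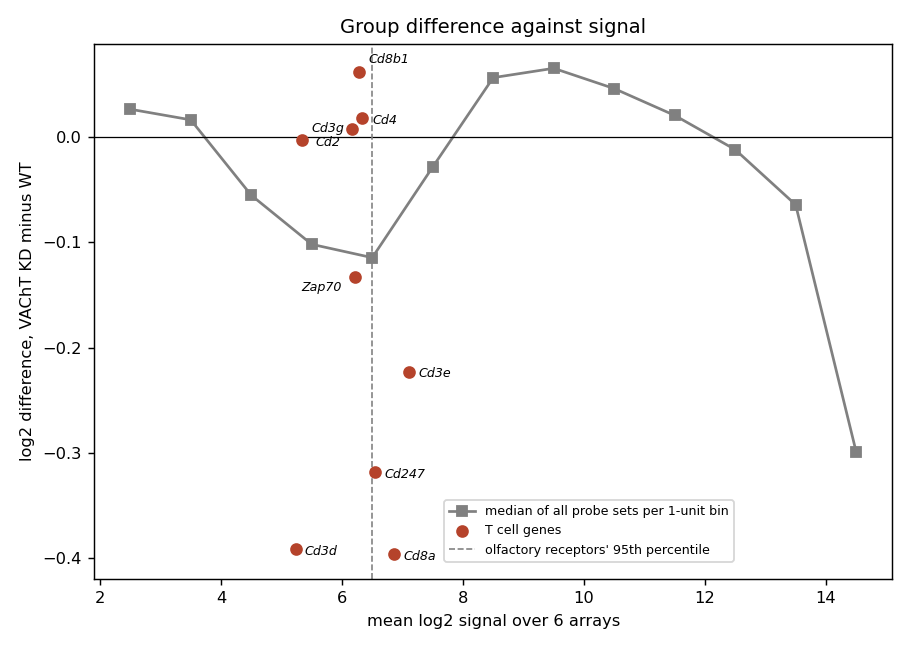
Log2 difference, VAChT KD minus WT (vertical axis), against the mean log2 signal over 6 arrays (horizontal axis) for the 9 T cell genes (red) and as the median of all probe sets in bins 1 log2 unit wide (gray); the dashed line is the 95th percentile of the olfactory receptors. The gray line is lowest among dim probe sets at -0.11, between 6 and 7, and again at the brightest, and Cd8a, Cd3d, Cd247 and Cd3e lie below it.

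The rest of the T cell program was described with 5 further lists, covering receptor signalling, costimulation, transcription factors, cytokine and homing receptors, and effector molecules. Of their 122 measured genes, counted at the brightest probe set, 13 (10.7%) were lower and 3 higher in VAChT KD hearts at an unadjusted p of 0.05 in limma, against 7.81% and 3.93% of all probe sets, and none passed an adjusted p of 0.05 (lowest adjusted p = 0.409). Of the olfactory receptor probe sets 10.6% were lower, and of all probe sets with a mean between 6 and 7, 14.7%. The counts of the single lists below stand beside these shares. The median difference of the 122 genes was -0.07. Above the olfactory receptors' 95th percentile lay 63 of the 122, of which 5 were lower and 3 higher.

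In receptor signalling, 1 of 34 genes was lower and 1 higher, with a median of 0.01. Prkcq, protein kinase C theta, which acts downstream of the receptor and is also abundant in skeletal muscle, read 8.09, 7.91 and 8.12 in VAChT KD hearts, against 7.78, 7.47 and 7.80 in WT hearts, a difference of 0.35 (standard error 0.12). Skap1, an adaptor that links the receptor to integrins, differed by -0.27 (standard error 0.11) at a mean of 5.83. Next by p were Sit1, an adaptor that dampens receptor signals, at -0.22 (standard error 0.10) and the kinase Txk at -0.16 (standard error 0.09), neither past the threshold. The adaptors Lat and Lcp2, which assemble the complex that ZAP-70 phosphorylates, differed by 0.02 and -0.11. Fyn, a kinase related to Lck that many tissues use, and Dgka, a lipid kinase, were the brightest of the list and differed by 0.03 and 0.07. Themis, a thymocyte selection protein, read 4.40, 4.84 and 4.74 in VAChT KD hearts, against 5.05, 4.61 and 5.06 in WT hearts, with a mean near the median of the olfactory receptors. Its groups overlapped at a difference of -0.25 with the labels as given, and did not overlap, at -0.40, with the labels of the arrays numbered 2 exchanged.

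Among 23 costimulatory and inhibitory receptors, 4 were lower and 1 higher, with a median of -0.09. Cd5, a brake on receptor signalling, read 6.56, 6.56 and 6.502 in VAChT KD hearts, against 6.78, 6.77 and 6.75 in WT hearts, a difference of -0.23 (standard error 0.07) with a narrow spread in both groups. The groups of Cd5 did not overlap with the labels as given, and would overlap with those of the arrays numbered 2 exchanged. Cd7 differed by -0.40 (standard error 0.13), Cd96 by -0.26 (standard error 0.09) and Tnfrsf9, the 4-1BB receptor, by -0.34. Cd28, the main costimulatory receptor, lay on the other side, at 7.27, 7.35 and 7.35 in VAChT KD hearts, against 7.01, 7.16 and 7.12 in WT hearts, a difference of 0.23 (standard error 0.08) without overlap with the labels as given. The groups of Cd28 would also overlap with the labels of the arrays numbered 2 exchanged. As labelled, 12.9% of all probe sets were lower without overlap in VAChT KD hearts and 6.25% higher. Thy1, a surface protein of mouse T cells that fibroblasts and neurons share, was the brightest of this list at a mean of 7.95 and differed by 0.12 (standard error 0.10), and Tigit, an inhibitory receptor, by -0.21 (standard error 0.10).

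Of 21 transcription factors, 3 were lower and 0 higher, with a median of -0.08. Lef1, which acts in T cell development, read 6.10, 6.19 and 5.96 in VAChT KD hearts, against 6.59, 6.44 and 6.43 in WT hearts, a difference of -0.40 (standard error 0.09). Tbx21, the T-bet factor of type 1 helper and cytotoxic cells, differed by -0.37 (standard error 0.10), without overlap with the labels as given. Groups without overlap and lower signal in VAChT KD hearts were found at 12.9% of all probe sets. At Lef1 and Tbx21 the groups would overlap with the labels of the arrays numbered 2 exchanged. Zbtb16, the PLZF factor of innate-like T cells, which other tissues also express, was far brighter, at 9.81, 9.38 and 10.12 in VAChT KD hearts, against 11.19, 11.12 and 9.79 in WT hearts. Its difference of -0.93 (standard error 0.38) rested on WT 1 and WT 2, and WT 3 lay within the VAChT KD range. The label of WT 2 is in doubt, as is that of VAChT KD 2, the lowest array at this gene. With these labels exchanged, Zbtb16 would read 9.81, 11.12 and 10.12 in VAChT KD hearts, against 11.19, 9.38 and 9.79 in WT hearts. Its mean would then be higher in VAChT KD hearts, with overlapping groups. Runx3, a factor of cytotoxic T cells, at -0.17 (standard error 0.09) and Id2, the brightest but Zbtb16, at 0.26 (standard error 0.21) did not pass the threshold.

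Of 20 cytokine and homing receptors, the chemokine receptors Ccr4, Ccr9 and Ccr6 were lower, at -0.25 (standard error 0.08), -0.30 (standard error 0.10) and -0.31 (standard error 0.11), and none was higher. All 3 had means below the olfactory receptors' 95th percentile, between 5.42 and 5.89. Il12rb2, a subunit of the interleukin-12 receptor, differed by -0.17 (standard error 0.09), Il7r, the receptor for a survival cytokine of T cells, by 0.01, and the bright S1pr1 and Il15ra, which endothelial and other cells also express, by 0.21 (standard error 0.15) and 0.02 (standard error 0.10).

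Of 24 effector genes, 22 had a difference below 0, against 54.2% of all probe sets and 83.7% of the olfactory receptor probe sets, and 2 were lower and 1 higher at the threshold, with a median of -0.14. Prf1, the pore-forming perforin, read 6.40, 6.41 and 6.49 in VAChT KD hearts, against 6.78, 6.87 and 6.70 in WT hearts, a difference of -0.35 (standard error 0.08). The cytokine gene Tnf differed by -0.21 (standard error 0.07), at a mean of 6.42, below the olfactory receptors' 95th percentile. Serpinb9, an inhibitor of granzyme B, read 8.10, 8.22 and 8.29 in VAChT KD hearts, against 7.49, 7.96 and 8.02 in WT hearts, a difference of 0.38 (standard error 0.15). With the labels of the arrays numbered 2 exchanged, Prf1 would read 6.40, 6.87 and 6.49 in VAChT KD hearts, against 6.78, 6.41 and 6.70 in WT hearts. The groups of Prf1, Tnf and Serpinb9 would all overlap after this exchange. Il5 differed by -0.21 (standard error 0.09), Gzmb by -0.18, Ifng by -0.12, Gzma by -0.07 and the chemokine Ccl5, the second brightest of the list, by -0.01. Only 5 of the 24 lay above the olfactory receptors' 95th percentile. The 7 T cell receptor segment genes listed in the annotation all had a difference below 0, as did 83.7% of the olfactory receptor probe sets, with a median of -0.17, and Trav13-5 at -0.44 (standard error 0.18) was the only one past an unadjusted p of 0.05. Trav19 at -0.17, Trbv1 at -0.24 and Trav12-2 at -0.22 did not pass it.

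**Figure D4:**
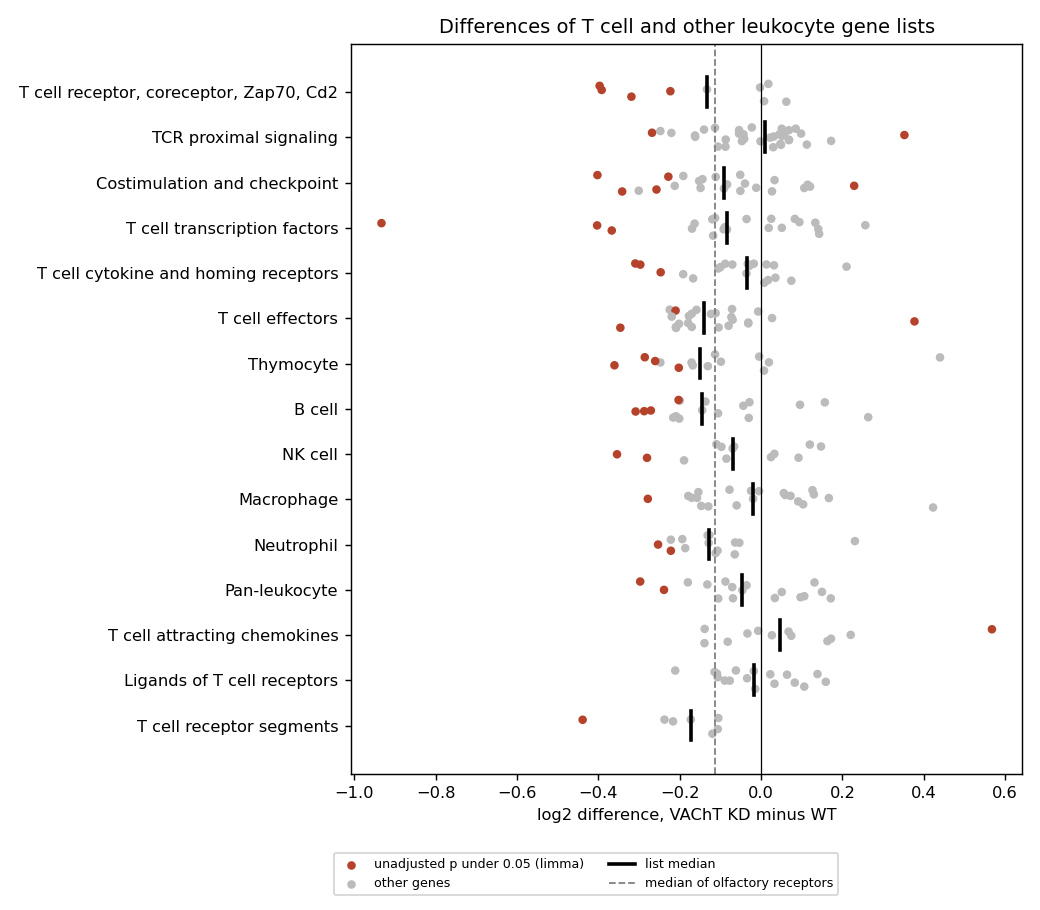
Log2 difference, VAChT KD minus WT (horizontal axis), of each gene in the T cell lists and in lists of other leukocytes, of thymus, of chemokines and of ligands (rows), with the list median as a bar; genes at an unadjusted p under 0.05 in limma are red, and the dashed line is the median of the olfactory receptors, -0.11. Medians of the lists lie between -0.17 and 0.05.

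Other leukocytes and neighbouring tissue could share or carry these transcripts, and their markers were read beside the T cell genes. For the counts that follow, 7.81% of all probe sets and 10.6% of the olfactory receptor probe sets were lower at an unadjusted p of 0.05. Among all probe sets with a mean between 6 and 7 the share was 14.7%. Of 14 genes of thymus, 4 (28.6%) were lower: Foxn1, Psmb11, Prss16 and Aire, which mark thymic epithelium, at -0.36, -0.26, -0.29 and -0.20. The genes that define immature T cells, Rag1, Rag2, Dntt and Ptcra, averaged 5.76, 4.54, 5.26 and 6.41, all below the olfactory receptors' 95th percentile, and differed by -0.10 to -0.17. The mean of the thymus list ran from 5.94 to 6.01 in VAChT KD hearts and from 6.04 to 6.11 in WT hearts. Cd24a, which other cells also express, was its brightest gene at 7.13 with Aire, and differed by 0.44 (standard error 0.24).

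Of 17 B cell genes, 4 (23.5%) were lower, against 7.81% of all probe sets and 14.7% of those with a mean between 6 and 7. They were Pou2af1, Tnfrsf13b, Tnfrsf13c and Cd22, at -0.29, -0.27, -0.31 and -0.20. The list mean ran from 6.24 to 6.41 in VAChT KD hearts and from 6.41 to 6.53 in WT hearts. The antigen receptor chains Cd79a and Cd79b differed by 0.10 and -0.03, and Ebf1, which fat and stromal cells share, was the brightest and differed by 0.16. Of 13 natural killer cell genes, Cd160 at -0.28 and Sh2d1b1 at -0.35 were lower, with means of 5.01 and 4.76, and the list mean ran from 5.16 to 5.27 in VAChT KD hearts and from 5.25 to 5.33 in WT hearts. Ncr1, a receptor that defines these cells, averaged 5.09 and differed by -0.19, and the bright adaptors Tyrobp and Fcer1g, which myeloid cells share, differed by 0.15 and 0.12.

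Macrophage genes were the clearest leukocyte signal, with 17 of 21 above the olfactory receptors' 95th percentile. Their median was -0.02, 1 was lower and 0 higher, and the list mean ran from 7.86 to 8.14 in VAChT KD hearts and from 7.93 to 8.06 in WT hearts. Lyve1, of resident macrophages and lymphatic vessels, differed by -0.28 (standard error 0.10), while Lyz2 and C1qb, the brightest, differed by 0.06 and 0.09, and Cd163, Cd209f and Cx3cr1 by -0.17, 0.42 and -0.16. Of 14 neutrophil genes Mmp9 and Ltf were lower, at -0.22 and -0.25, and Retnlg, Lcn2 and Camp differed by -0.19, 0.23 and -0.22. Their list mean ran from 5.72 to 5.87 in VAChT KD hearts and from 5.87 to 5.99 in WT hearts. Of 17 genes shared by all leukocytes, Cytip and Spn were lower, at -0.30 and -0.24, the median was -0.05, and the list mean ran from 7.15 to 7.44 in VAChT KD hearts and from 7.33 to 7.37 in WT hearts. Ptprc differed by 0.05, Laptm5 and Arhgdib, the brightest, by -0.07 and 0.13, and Wdfy4 and Fermt3 by -0.18 and -0.13. The part of any of these cells in the T cell values was not tested.

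On the side of the partner cells, 1 of 12 T cell attracting chemokines differed at the threshold. Cxcl9, which draws activated T cells through the receptor CXCR3, read 8.23, 8.54 and 8.70 in VAChT KD hearts, against 7.75, 8.01 and 8.01 in WT hearts. The difference was 0.57 (standard error 0.14, limma unadjusted p = 0.00432, adjusted p = 0.409). The groups did not overlap with the labels as given, and would overlap with those of the arrays numbered 2 exchanged. Cxcl10, a ligand of the same receptor, differed by -0.14 (standard error 0.10), Cxcl12 by 0.16 (standard error 0.11) and Cxcl16 by 0.17 (standard error 0.13). Of 17 ligands of T cell receptors 0 differed at the threshold, with a median of -0.02: B2m, the shared chain of class I MHC, differed by 0.06 (standard error 0.18), H2-Aa, of class II MHC, by -0.01 (standard error 0.25), Pvr by 0.16, Cd86 by 0.14, Tnfsf9 by -0.11 and Tnfsf4 by -0.21.

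The genes whose pattern over the 6 arrays was most like the mean of Cd3e, Cd8a and Cd247 were sought among all genes with 1 symbol above the olfactory receptors' 95th percentile. By Pearson's r over the 6 arrays these were Foxd2 (r = 0.998), Rhox6 (r = 0.996), Bard1 (r = 0.995), Atcay (r = 0.993) and Pafah1b3 (r = 0.993). Foxd2, a forkhead transcription factor, read 6.65, 6.77 and 6.71 in VAChT KD hearts, against 7.08, 6.88 and 6.93 in WT hearts. Rhox6, a homeobox gene of the reproductive tract, read 8.36, 8.46 and 8.40 in VAChT KD hearts, against 8.80, 8.57 and 8.62 in WT hearts. None of the 5 was on a T cell list, and in all of them WT 1 was the highest array and VAChT KD 1 the lowest. The points share the arrays and their normalization, and these r values were the highest of 14472 probe sets searched, so they are a description only.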

How the data were processed

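Heart RNA of 3 VAChT KD and 3 WT pools was hybridised to Affymetrix Mouse Gene 1.0 ST arrays, scanned with Command Console 1.1. The authors obtained gene-level RMA values with Partek Genomics Suite 6.5. The deposited values are log2 signals, background-corrected and normalized across arrays, with 1 value per probe set. The genome build is not given in the sources used here. No filter was applied.

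Gene names came from the platform annotation, which gave 21789 probe sets 1 symbol, 1621 several and 12146 none. VAChT KD arrays were compared with WT arrays by limma 3.58.1 (lmFit, eBayes; R 4.3.3), and p-values were adjusted over the 35556 probe sets by Benjamini and Hochberg's method. Two-sided exact permutation tests, for which 0.1 is the smallest p with 3 arrays a group, gave 0.1 for Cd3d, Cd3e, Cd247 and Cd8a, 0.2 for Zap70, and 0.5 or more for the rest. The number of arrays limits the precision. Other lists were counted at the brightest probe set of each gene. The genes named were all members, up to 4 of each other list by p and the 2 brightest, the 5 most alike in pattern, and Slc18a3, Ogdhl and Themis. Further genes of the lists were named after their values were seen. Members and lists were chosen with earlier results of these data known. The procedure was tested on simulated data.

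Alternatives were a further quantile normalization, median centring, a filter on dim probe sets, other eBayes settings, array weights, a block for the replicate number, arrays left out, exchanged labels of the arrays numbered 2 (added later), other backgrounds and the methods' ANOVA.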

Additional observations from a re-analysis of the deposited data

How the results depend on the processing

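In limma, none of the 9 T cell genes passed an adjusted p of 0.05 under any alternative of normalization, filter, model or left-out array (lowest adjusted p between 0.367 and 0.807 by setting). With an unadjusted p of 0.05 as the threshold 4 passed, and with 1.3-fold added 2. Cd3d, Cd3e, Cd247 and Cd8a stayed lower in VAChT KD hearts on average under every alternative that gave them a value. Leaving out 1 array at a time, 2 to 4 of the 9 genes were lower at an unadjusted p of 0.05, with 2 when VAChT KD 1 was left out. In the 5 further T cell lists 7 to 14 genes were then lower, with 7 without WT 1, and 0 to 3 were higher, with 0 without VAChT KD 3 and 1 each without VAChT KD 2 or WT 1. The 13 lower genes of these lists numbered 8 with median centring and 6 without both arrays numbered 2, where 6.16% of all probe sets were lower. With the filter on dim probe sets 5 were lower, against 7.75% of the probe sets kept. Of the 122 genes 63 lay above the limit of this filter, and 5 of these were lower without it as well. Median centring moved the median of all probe sets to 0.05, left 3 of the 9 genes lower and lowered the share of all probe sets that were lower to 3.66%. The filter kept 20448 probe sets and 3 of the 9 genes, whose median was -0.32. The number above background was 9 against the olfactory receptors' median, 0 against their 99th percentile and 7 against vomeronasal and taste receptors.

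With the labels of the arrays numbered 2 exchanged, an alternative added after seeing the data and given without a test, 0 of the 9 genes had groups without overlap and lower signal in VAChT KD hearts, in place of 4, against 6.44% of all probe sets. The median of the 9 was then -0.094, beside -0.09 for the olfactory receptor probe sets and -0.021 for all probe sets. Of the 9 genes 8 had a difference below 0. Cd3g was at 0.081, Cd8b1 at -0.085, Cd4 at -0.021, Cd2 at -0.094 and Zap70 at -0.023.

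The sign changed only for Cd3g, Cd8b1, Cd4 and Cd2. Cd3g was at 0.059 with further quantile normalization, 0.064 with median centring and 0.059 without both arrays numbered 2, where Cd8b1 was at -0.017, Cd4 at -0.0021 and Cd2 at -0.065. With 1 array left out, Cd3g ran from -0.21 (without VAChT KD 3) to 0.12 (without VAChT KD 1), Cd4 from -0.076 (without WT 3) to 0.11 (without WT 1) and Cd2 from -0.078 (without WT 3) to 0.088 (without WT 1). The cause of these changes was not tested.

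The arrays share replicate numbers, but their deviations from the group means correlated at 0.06, -0.12 and 0.13 within numbers, so the numbers were not taken as pairs. With the replicate number as a block 3 of the 9 genes were lower at an unadjusted p of 0.05 and Cd3e was not (limma unadjusted p = 0.0631), with 0 past the adjusted threshold.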
